A study of Rattus norvegicus with 12 samples.

Results

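The cyclic nucleotide phosphodiesterases described here are the products of 10 genes, Pde1a, Pde1c, Pde2a, Pde3a, Pde3b, Pde4a, Pde4b, Pde4d, Pde5a and Pde8a. They were chosen by gene symbol as the phosphodiesterase genes best known from heart muscle, with earlier results of these data known. Every transcript listed under these symbols was taken, which gave 16 of the 18752 transcripts in the data. Pde2a had 3 listed transcripts, Pde4d had 5, and each of the other 8 genes had 1. mRNA levels were compared in adult rat ventricular myocytes (ARVMs) from male Sprague Dawley rats, transduced in culture at 50 m.o.i. with an adenovirus. In 6 samples the virus carried enhanced green fluorescent protein (Ad-GFP), the transduction control, and in 6 it carried human NR4A2 cDNA driven by the CMV promoter (Ad-h-NR4A2). RNA was taken 48 h later. NR4A2 is an orphan nuclear receptor, and both groups carry an adenovirus, so that there is no untransduced group here. The samples are numbered 24 to 29 in each group.

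Phosphodiesterases break the phosphate ring of cAMP and cGMP and so end the signals that these messengers carry to protein kinases A and G. In ventricular myocytes cAMP made after β-adrenergic stimulation speeds and strengthens contraction, while cGMP made after natriuretic peptides or nitric oxide tends to oppose it. The families differ in substrate and in regulation, and isoforms are anchored at different places in the myocyte, which keeps cyclic nucleotide pools apart.

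The libraries corresponded to 18800000 to 28000000 fragments per sample, as implied by the size of 1 fragment in the FPKM values (fragments per kilobase of transcript, scaled to the mapped fragments of the library). Nr4a2, read here through the rat gene model although the transgene is human, rose from 0.884 ± 0.309 to 524 ± 70.3 FPKM (SD, n = 6 per group; limma adjusted p = 1.653e-11), and in each of the 12 samples it lay on the side that the label gives. The 7 cardiomyocyte markers summed to 18800 to 24200 FPKM in Ad-GFP and to 16400 to 20100 FPKM in Ad-h-NR4A2, and 5 of the 7 (Myh6, Myh7, Tnnt2, Ryr2 and Pln) were lower at a limma adjusted p below 0.05, of which Myh7, Ryr2 and Pln by at least 1.5-fold. The sum was lower with Ad-h-NR4A2 in all 6 same-numbered pairs. Of all genes tested, with 1 transcript per gene, 21.5% were lower by adjusted p, and 7.17% by at least 1.5-fold as well. With the sample number as a block 6 of the 7 markers were lower by adjusted p, against 30.6% of all transcripts, with Tnni3 added (limma adjusted p = 0.00669). In RNA from whole cultures, fewer cells of a type and less RNA per cell cannot be told apart.

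All 16 phosphodiesterase transcripts were above 0 in every sample and were tested with limma on log2(FPKM + 0.1), together with 11667 transcripts in all. A transcript was called where the Benjamini-Hochberg adjusted p was below 0.05 and the group means differed at least 1.5-fold. By this rule 7 of the 16 were called, or 43.8%, against 14.7% of all transcripts tested. Of these, 6 rose (37.5%, against 7.72% of all) and 1 fell (against 6.95%). The transcripts that rose belonged to Pde2a, Pde3a, Pde4d and Pde5a, and the one that fell was that of Pde3b. By adjusted p alone 8 of the 16 passed, against 39.1% of all transcripts, the additional one being Pde8a, which was lower. With the sample number as a block, 9 of the 16 (56.25%) passed by adjusted p alone against 56.3% of all transcripts, so that by this rule the share was at the background. Without the block Pde1a, Pde1c, Pde4a and Pde4b had no call, and with it Pde1c was called lower (limma adjusted p = 0.0138). The median log2 fold change was 0.147 over the 16 and -0.0226 over all transcripts tested. The members were chosen with earlier results of these data known, so that these shares and medians are a description and no independent support. Exact two-sided permutation p-values below run over the 924 ways to divide the samples 6 against 6, and the smallest possible one is 0.00216.

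**Figure D1:**
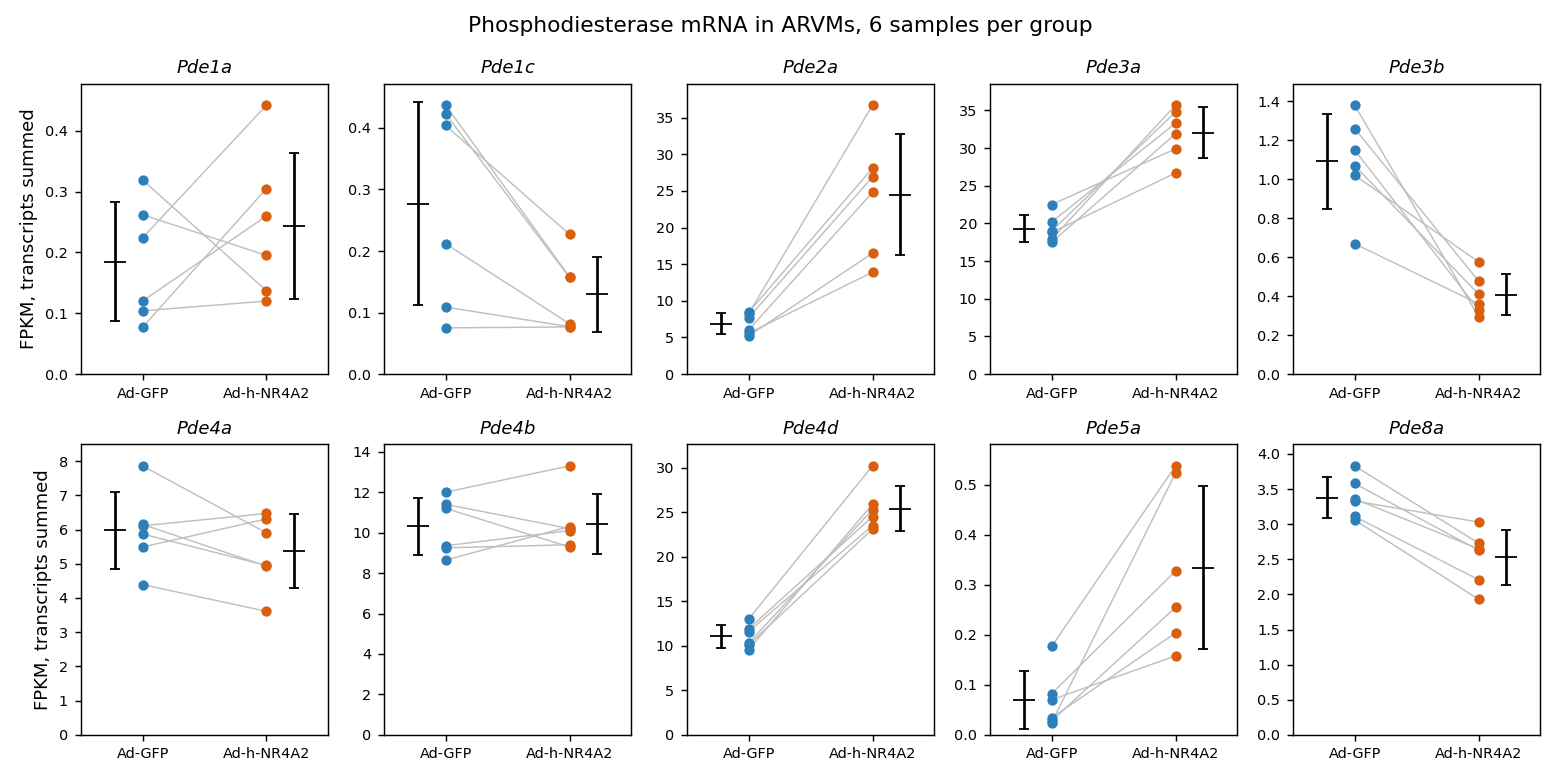
FPKM of each phosphodiesterase gene, its transcripts summed, in the 6 Ad-GFP and 6 Ad-h-NR4A2 samples (points), with the mean and SD beside them (bars) and grey lines joining samples of the same number; each panel has its own axis from 0. All 6 Ad-h-NR4A2 points lie above all Ad-GFP points for Pde2a, Pde3a and Pde4d, and below them for Pde3b and Pde8a.

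Pde2a encodes a phosphodiesterase that hydrolyses both cAMP and cGMP and is stimulated by cGMP binding, so that it couples the 2 messengers. Its mRNA was more than 3-fold higher with Ad-h-NR4A2. Transcripts summed, Ad-GFP samples had a lowest value of 5.21 FPKM, a median of 6.86 and a highest of 8.43. Ad-h-NR4A2 samples had a lowest value of 13.9 FPKM, a median of 25.9 and a highest of 36.7. The groups did not overlap, and the Ad-h-NR4A2 samples were also the more scattered, with sample 24 lowest and sample 27 highest. The means were 6.87 ± 1.42 and 24.5 ± 8.32 FPKM, a ratio of 3.57, and the log2 fold change of the sum was 1.77 with a standard error of 0.22 (limma adjusted p = 2.152e-05).

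The gene lies on chromosome 1, at 172724783 to 172816723 in the Rn5 assembly of the files, and 2 of its 3 transcripts carried the reads. NM_031079 averaged 4.67 ± 1.58 FPKM in Ad-GFP and 16.0 ± 4.67 in Ad-h-NR4A2 (log2 fold change 1.77, 95% interval 1.24 to 2.30, limma adjusted p = 0.000118). NM_001270604 averaged 2.19 ± 0.729 and 8.44 ± 3.73 FPKM (log2 fold change 1.84, 95% interval 1.12 to 2.56, limma adjusted p = 0.000902). NM_001143847 was at most 4.49e-05 FPKM, less than 1 fragment in any sample, and has no fold change of meaning. Both expressed transcripts rose in all 6 pairs. The share of NM_031079 in the summed level was 66.9 ± 11.2% in Ad-GFP and 66.6 ± 4.83% in Ad-h-NR4A2, a difference of -0.286 percentage points (two-sided exact permutation p = 0.961, adjusted 0.961 over 6 shares tested). In Ad-GFP this share was between 59.3% and 87.3%, the highest in sample 27. A small shift in the balance of the 2 transcripts could be missed at this scatter, and the smallest detectable shift was not tested.

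Pde3a and Pde3b encode the cGMP-inhibited cAMP phosphodiesterases, the class blocked by the inotrope milrinone, and they moved in opposite directions. Pde3a, the main cardiac member, lies on chromosome 4 at 239659270 to 239921900. Its levels in Ad-GFP ran from 17.5 FPKM over a median of 18.9 to 22.5. With Ad-h-NR4A2 they ran from 26.7 FPKM over a median of 32.6 to 35.7, clear of the control range. The means were 19.3 ± 1.82 and 32.1 ± 3.36 FPKM, which is a ratio of 1.66 (log2 fold change 0.73, SE 0.08, 95% interval 0.55 to 0.90, limma adjusted p = 1.982e-05). At 1154 to 2761 fragments per sample it had the most fragments among the members with 1 transcript, and the ratio lies below a 2-fold limit.

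Pde3b, known from insulin action in fat and from a complex with phosphoinositide 3-kinase γ in the heart, lies on chromosome 1 at 190865614 to 191050207. It was much lower than Pde3a in both groups. Its lowest, median and highest levels were 0.669, 1.11 and 1.38 FPKM in Ad-GFP and 0.295, 0.386 and 0.576 FPKM in Ad-h-NR4A2, from 79 to 145 and from 30 to 53 fragments. The groups did not overlap, and all 6 pairs fell. The mean dropped from 1.09 ± 0.244 to 0.408 ± 0.104 FPKM, which is a ratio of 0.374 (log2 fold change -1.22, SE 0.17, 95% interval -1.60 to -0.85, limma adjusted p = 0.000144). With a pseudocount of 1 the log2 fold change was -0.565 (limma adjusted p = 0.000139). Within the PDE3 pair, the Pde3b share was 5.43 ± 1.47% in Ad-GFP and 1.26 ± 0.283% in Ad-h-NR4A2.

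The PDE4 enzymes are specific for cAMP and are the targets of rolipram. Of the 3 PDE4 genes among the 10, only Pde4d was called. PDE4D is anchored, among other places, at the ryanodine receptor complex and, through β-arrestin, at the β2-adrenergic receptor. Transcripts summed, Pde4d was lowest at 9.57 FPKM, had a median of 10.9 and was highest at 13.0 in Ad-GFP. With Ad-h-NR4A2 the lowest, median and highest values were 23.1, 24.9 and 30.2 FPKM. The lowest Ad-h-NR4A2 sample was well above the highest control. The means were 11.1 ± 1.30 and 25.4 ± 2.57 FPKM, a ratio of 2.29, with a log2 fold change of the sum of 1.19 (SE 0.08, limma adjusted p = 1.593e-07).

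Pde4d lies on chromosome 2 at 59292847 to 60521351, and most of its level was on NM_017032. This transcript averaged 9.97 ± 1.00 FPKM in Ad-GFP and 21.6 ± 3.02 in Ad-h-NR4A2, without overlap (log2 fold change 1.10, 95% interval 0.88 to 1.32, limma adjusted p = 4.839e-06). NM_001113334 was called as well, on weaker ground. Its Ad-GFP values had a lowest of 0.000102, a median of 0.610 and a highest of 3.07 FPKM, against 1.57, 3.19 and 6.83 FPKM in Ad-h-NR4A2. The groups overlapped, 5 of the 6 pairs rose, and control samples 26 and 28 had practically none of it. Its log2 fold change was 2.60 with an interval of 0.78 to 4.42 (limma adjusted p = 0.027), and the call was lost without Ad-GFP sample 26 (2.10, limma adjusted p = 0.0534) or 28 (2.10, 0.052), or without Ad-h-NR4A2 sample 24 (2.39, 0.0531) or 27 (2.51, 0.0528), and with a pseudocount of 0.01 (3.74, 0.053). With a pseudocount of 1 the log2 fold change was 1.31 (limma adjusted p = 0.0143), and the ratio of the means was 3.52.

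The remaining Pde4d transcripts were assigned fragments in few samples. NM_001113332 had more than 1e-06 FPKM in 3 samples, Ad-GFP 24 and 25 and Ad-h-NR4A2 29, with at most 0.353 FPKM. NM_001113329 had it in 2, Ad-h-NR4A2 26 and 27, with at most 0.149 FPKM. Neither was called (limma adjusted p = 0.807 and 0.205), and NM_001113328 did not reach 1 fragment in any sample. The share of NM_017032 in Pde4d was 90.6 ± 10.1% in Ad-GFP and 85.1 ± 7.63% in Ad-h-NR4A2, a difference of -5.57 percentage points (two-sided exact permutation p = 0.316, adjusted 0.585 over 6 shares). The transcripts of Pde4d share exons, and the split of fragments between them is an estimate of the authors' quantification, so that the sum is the firmer value.

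**Figure D2:**
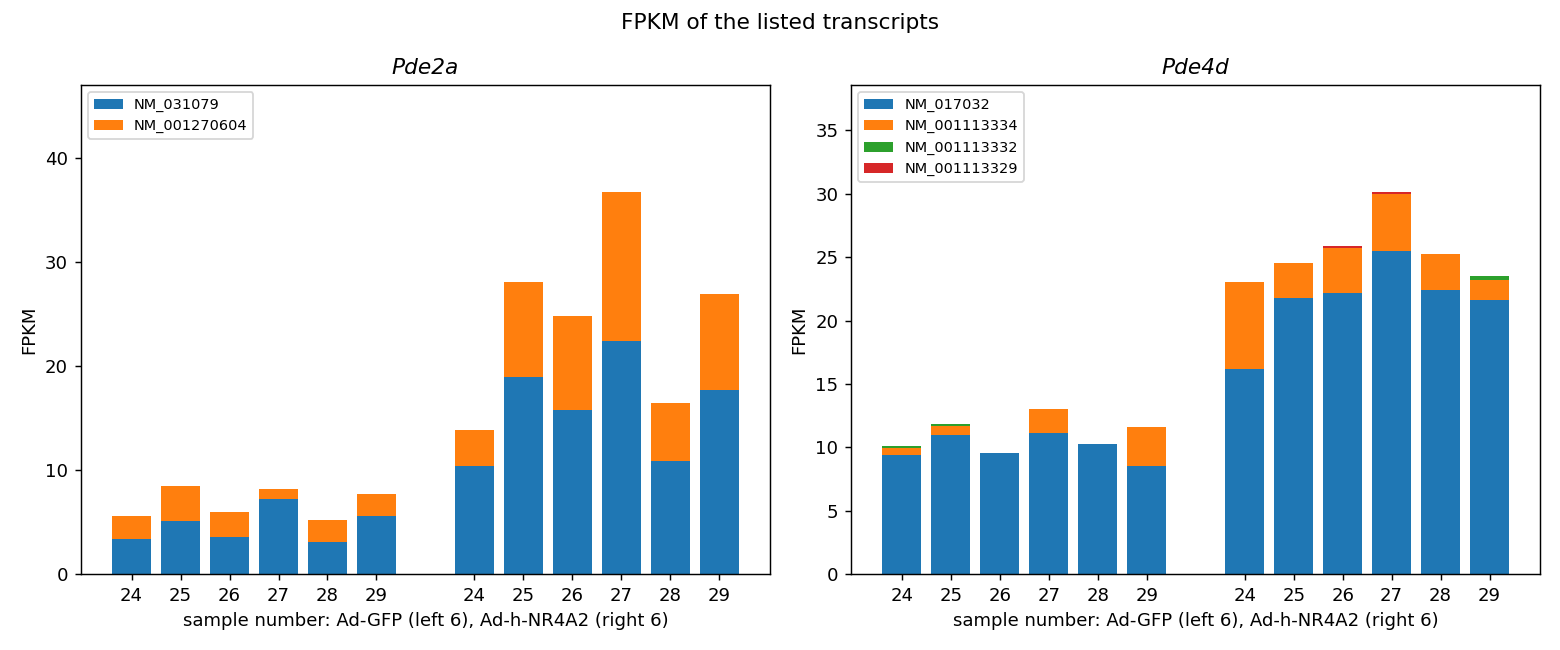
FPKM of the listed transcripts of Pde2a (left panel) and Pde4d (right panel) stacked for each sample, numbered 24 to 29, with Ad-GFP in the left 6 bars and Ad-h-NR4A2 in the right 6; transcripts that never reached 1 fragment are left out. The Ad-h-NR4A2 bars are taller in all 6 pairs, from 13.9 to 36.7 FPKM for Pde2a and from 23.1 to 30.2 for Pde4d, and NM_001113334 of Pde4d is uneven between samples.

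Pde4a and Pde4b had no call. Pde4b, an isoform that shapes cAMP at the L-type calcium channel, had lowest, median and highest levels of 8.64, 10.3 and 12.0 FPKM in Ad-GFP and of 9.29, 10.2 and 13.3 FPKM in Ad-h-NR4A2. The ranges nearly coincided. The means were 10.3 ± 1.38 and 10.4 ± 1.48 FPKM, and the 95% interval of the log2 fold change was -0.21 to 0.25 (limma adjusted p = 0.910). Pde4a ran from 4.39 over 5.99 to 7.86 FPKM in Ad-GFP and from 3.61 over 5.43 to 6.47 FPKM in Ad-h-NR4A2, again with broad overlap. Its log2 fold change had an interval of -0.50 to 0.19 (limma adjusted p = 0.463). A 1.5-fold change in either direction lies outside both intervals.

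Pde2a and Pde4d both rose, and their start sites are shown here because a nuclear receptor was introduced. RefSeq on the GRCr8 assembly, another build than that of the files, gave 18 promoter windows for 9 of the 10 genes, with none for Pde3b. Each window held 250 bases before and 50 after a transcript start. Which window belongs to which deposited transcript was not determined. The windows were searched on both strands for AAAGGTCA, the NBRE element to which NR4A receptors bind as monomers, for the full cAMP response element TGACGTCA, and for TGACG, the partial form of that element, which the full element contains. Neither NBRE nor the full element occurred in any of the 18. They occurred in 1.43% and 1.83% of all 33469 windows, so rarely that their absence from 18 windows decides nothing. TGACG occurred in 5 of the 18, in windows of Pde4a, Pde4d and Pde8a, and in 21.2% of all windows. Of these 3 genes only Pde4d rose, while Pde4a had no call and Pde8a was lower. The windows of Pde2a, Pde3a and Pde5a, which rose as well, held no TGACG. A relation between the match and the change of a gene was not tested. The 250 upstream bases follow for both windows of Pde2a and for the 2 windows of Pde4d that hold TGACG, 5′ to 3′ on the plus strand, where capitals mark TGACG or its reverse complement CGTCA.
Pde2a window 1, chr1:165235373-165235622: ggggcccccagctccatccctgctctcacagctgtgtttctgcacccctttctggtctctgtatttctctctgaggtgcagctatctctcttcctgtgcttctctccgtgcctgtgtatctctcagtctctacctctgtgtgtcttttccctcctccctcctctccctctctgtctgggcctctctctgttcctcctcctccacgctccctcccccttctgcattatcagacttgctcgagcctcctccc
Pde2a window 2, chr1:165265759-165266008: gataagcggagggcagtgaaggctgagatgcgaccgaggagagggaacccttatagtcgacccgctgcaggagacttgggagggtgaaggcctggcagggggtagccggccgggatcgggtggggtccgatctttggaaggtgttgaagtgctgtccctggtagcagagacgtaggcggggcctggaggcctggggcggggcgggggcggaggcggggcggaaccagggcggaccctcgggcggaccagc
Pde4d window 3, chr2:42592499-42592748: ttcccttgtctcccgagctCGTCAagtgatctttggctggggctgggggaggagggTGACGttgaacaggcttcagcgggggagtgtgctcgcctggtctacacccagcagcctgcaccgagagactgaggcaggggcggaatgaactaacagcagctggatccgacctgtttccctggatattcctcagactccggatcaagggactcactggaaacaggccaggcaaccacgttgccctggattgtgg
Pde4d window 4, chr2:42767367-42767616: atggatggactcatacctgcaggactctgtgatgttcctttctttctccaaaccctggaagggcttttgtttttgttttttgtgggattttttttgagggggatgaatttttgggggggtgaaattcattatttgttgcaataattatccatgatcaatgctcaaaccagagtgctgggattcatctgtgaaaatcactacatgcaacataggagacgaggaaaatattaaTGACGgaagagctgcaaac
In window 3 of Pde4d TGACG stands at -231 on the minus strand and at -194 on the plus strand, and in window 4 at -19 on the plus strand, counted from the transcript start. No such letters occurred in the Pde2a windows. A match is a string of letters and was not measured as a binding site in these samples, and the lack of a match covers this window only.

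Pde5a encodes the cGMP-specific phosphodiesterase inhibited by sildenafil and was the least abundant member in Ad-GFP. It lies on chromosome 2 at 246262030 to 246402956. The lowest, median and highest levels were 0.0244, 0.0521 and 0.177 FPKM in Ad-GFP and 0.158, 0.291 and 0.538 FPKM in Ad-h-NR4A2. All 6 pairs rose, although the groups touched, because control sample 29 (0.177 FPKM) exceeded Ad-h-NR4A2 sample 24 (0.158 FPKM). The ratio of the means was 4.83 and the log2 fold change, on the scale with 0.1 added, was 1.34 (SE 0.27, 95% interval 0.76 to 1.91, limma adjusted p = 0.00176; two-sided exact permutation p = 0.00433). At this level the fitted value depends on the amount added, with 0.31 for a pseudocount of 1 (limma adjusted p = 0.00459) and 2.25 for 0.01 (0.00171). The call rested on 2 to 16 fragments in each control and 11 to 40 in each Ad-h-NR4A2 library, and the level in Ad-h-NR4A2 was still far below those of Pde3a, Pde4d or Pde2a.

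Pde1a and Pde1c encode calmodulin-dependent enzymes, of which PDE1A prefers cGMP and PDE1C takes both nucleotides. Both were low. Pde1a was read by 4 to 17 fragments in the controls and by 5 to 23 after Ad-h-NR4A2, with means of 0.184 ± 0.0979 and 0.243 ± 0.120 FPKM. Its log2 fold change was 0.27 with an interval of -0.31 to 0.86 (limma adjusted p = 0.458). Pde1c had lowest, median and highest levels of 0.0751, 0.308 and 0.437 FPKM in Ad-GFP, and of 0.0767, 0.120 and 0.227 FPKM in Ad-h-NR4A2. The Ad-GFP samples fell widely apart, with samples 24 and 28 low and 25, 27 and 29 high, and 5 of the 6 pairs were lower with Ad-h-NR4A2. The log2 fold change was -0.62 with an interval of -1.29 to 0.05 (limma adjusted p = 0.133). With the sample number as a block, so that each pair is compared within itself, the limma adjusted p was 0.0138 and Pde1c counted as lower, and without Ad-GFP sample 24 the log2 fold change was -0.81 (limma adjusted p = 0.0383).

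Pde8a encodes a high-affinity cAMP phosphodiesterase that is insensitive to the general inhibitor IBMX. It lies on chromosome 1 at 143980406 to 144101790. Levels were 3.06, 3.35 and 3.83 FPKM (lowest, median and highest) in Ad-GFP and 1.93, 2.64 and 3.03 FPKM in Ad-h-NR4A2. The groups did not overlap, although the lowest control and the highest Ad-h-NR4A2 sample were close. The means were 3.38 ± 0.289 and 2.53 ± 0.394 FPKM, a ratio of 0.749, with a log2 fold change of -0.41 (SE 0.11, 95% interval -0.65 to -0.18, limma adjusted p = 0.00884). Pde8a was thus lower by the test while its ratio stayed within the 1.5-fold limit. Together with NM_031079 and NM_001270604 of Pde2a, Pde3a, Pde3b and NM_017032 of Pde4d, it made 6 transcripts whose groups did not overlap, against 20.6% of all transcripts tested.

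**Figure D3:**
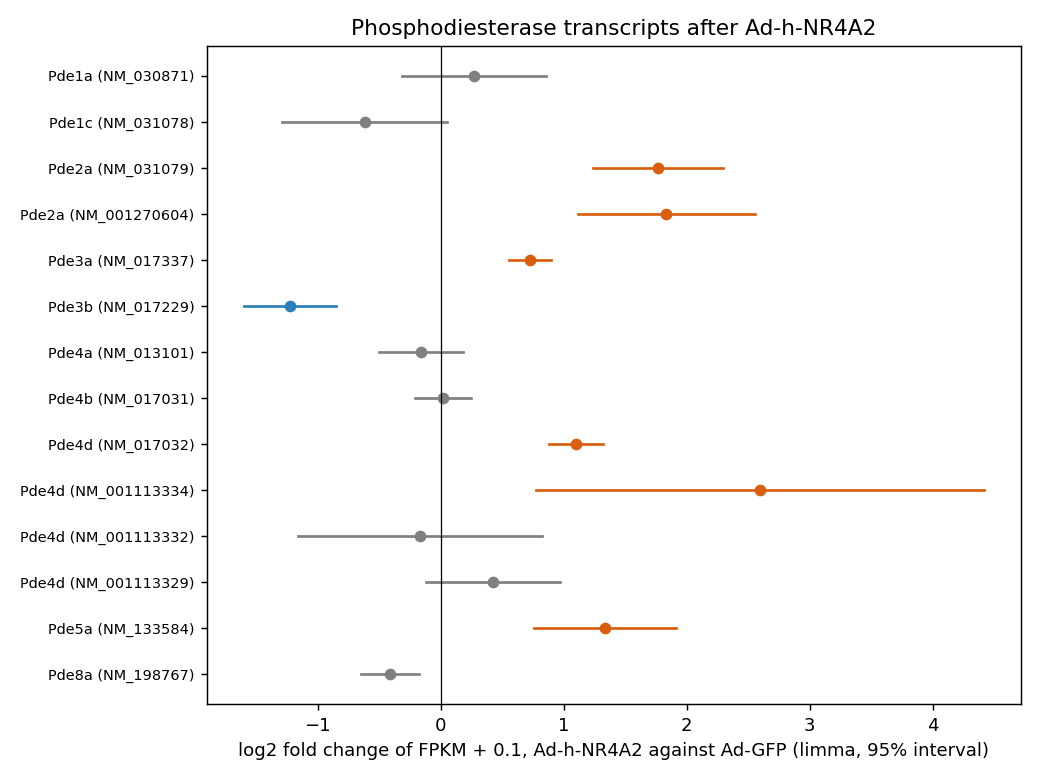
Log2 fold change of FPKM + 0.1, Ad-h-NR4A2 against Ad-GFP, for the 14 phosphodiesterase transcripts that reached 1 fragment, with 95% intervals from limma (lines); orange marks transcripts that rose and blue the one that fell by adjusted p and the 1.5-fold limit, grey the others. The interval is narrow for Pde3a (0.55 to 0.90) and wide for NM_001113334 of Pde4d (0.78 to 4.42).

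FPKM is scaled by length, so that levels can be set beside each other between genes. In Ad-GFP the order of the mean levels was Pde3a, Pde4d, Pde4b, Pde2a, Pde4a, Pde8a, Pde3b, Pde1c, Pde1a and Pde5a. The sample ranges of neighbours overlapped for Pde4d and Pde4b, for Pde2a and Pde4a, for Pde1c and Pde1a, and for Pde1a and Pde5a. Within a sample, Pde1a was higher than Pde5a in all 6, while the first-named of each of the other pairs was the higher in 5 of 6. In Ad-h-NR4A2 the order was Pde3a, Pde4d, Pde2a, Pde4b, Pde4a, Pde8a, Pde3b, Pde5a, Pde1a and Pde1c. Pde2a now ranged beside Pde4d, above it in 3 of 6 samples, and clear of Pde4b. The ranges of Pde3a and Pde4d overlapped, though Pde3a was the higher in all 6 samples, and those of Pde3b, Pde5a, Pde1a and Pde1c ran into each other.

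Summed over the 10 genes, phosphodiesterase mRNA was 58.5 ± 5.54 FPKM in Ad-GFP and 101.4 ± 9.57 FPKM in Ad-h-NR4A2, a ratio of 1.73. The lowest Ad-h-NR4A2 sample (91.3 FPKM) was above the highest control (65.1 FPKM). The makeup differed as well, and is given as a description. Pde2a took 11.6 ± 1.57% of the sum in Ad-GFP and 23.8 ± 6.44% in Ad-h-NR4A2. Pde4d took 18.9 ± 1.19% and 25.1 ± 1.42%, and Pde3a 33.1 ± 1.91% and 31.8 ± 3.97%. Pde4b, whose own level had no call, went from 17.6 ± 1.90% to 10.4 ± 2.07% of the sum, and Pde4a from 10.2 ± 1.17% to 5.28 ± 0.96%. Among the 3 PDE4 genes, Pde4d made up 40.6 ± 3.06% in Ad-GFP and 61.6 ± 4.35% in Ad-h-NR4A2, and Pde4b 37.7 ± 2.95% and 25.4 ± 3.65%. mRNA shares are not shares of enzyme activity, which was not measured in these data.

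**Figure D4:**
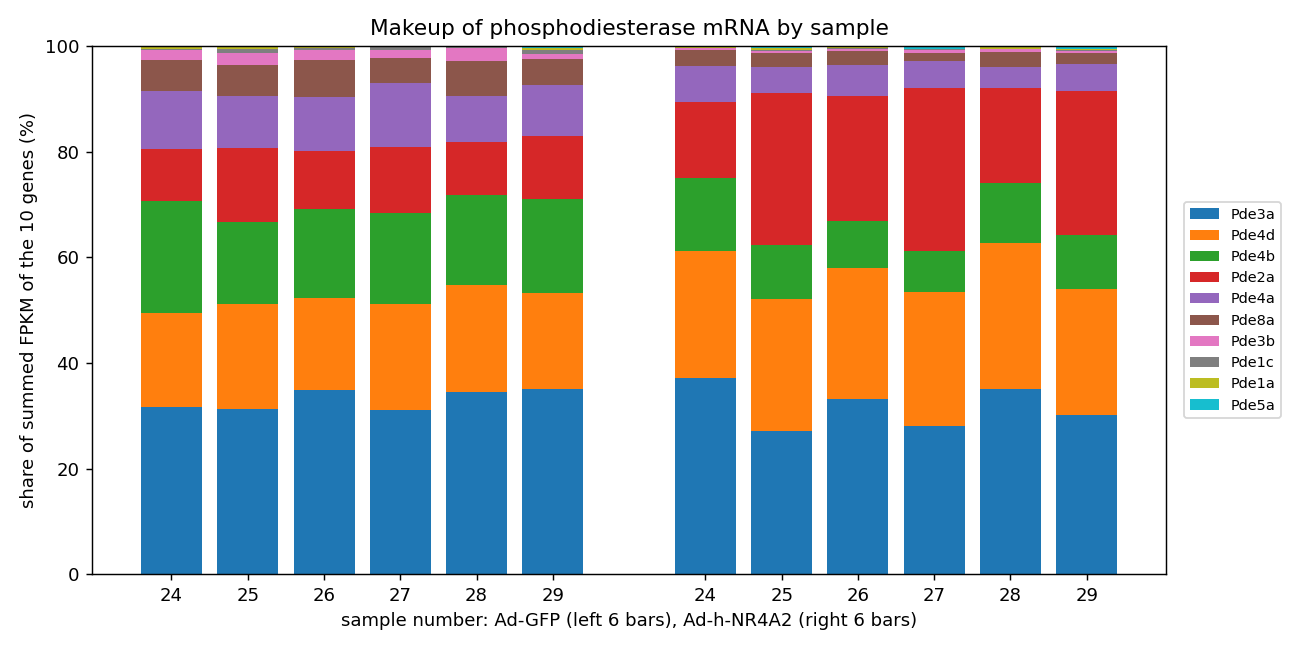
Share of each gene in the summed FPKM of the 10 phosphodiesterase genes, in percent, for each Ad-GFP sample (left 6 bars, numbered 24 to 29) and Ad-h-NR4A2 sample (right 6 bars). The Pde2a share was 9.88 to 14.0% in Ad-GFP and 14.4 to 30.9% in Ad-h-NR4A2, while the Pde3a share overlapped between the groups.

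Markers of other cells in which these enzymes are known were examined beside the calls. The 9 endothelial markers, relevant to Pde2a, summed to 10.7 to 34.7 FPKM in Ad-GFP and to 12.0 to 36.3 FPKM in Ad-h-NR4A2, higher in 4 of 6 pairs, and only Egfl7 was called (up). With the sample number as a block Kdr was lower by adjusted p (limma adjusted p = 0.0104), within the 1.5-fold limit. In that fit 22.2% of the 9 passed by adjusted p, against 55.2% of all genes. The 8 smooth muscle and pericyte markers, relevant to Pde5a and Pde1a, summed to 16.8 to 27.7 and to 11.3 to 23.6 FPKM, lower in all 6 pairs, and Myh11 and Cspg4 fell. The 9 fibroblast markers summed to 9.30 to 30.9 and to 5.88 to 27.4 FPKM, higher in 1 of 6 pairs. Col3a1 fell, Col1a1 was called lower only with the sample number as a block (limma adjusted p = 0.00973), and Col1a2 was listed at 0 in every sample. With the block Pdgfra was lower by adjusted p as well (limma adjusted p = 0.00615), within the 1.5-fold limit. The 7 macrophage and blood markers summed to 7.02 to 18.0 and to 37.4 to 49.7 FPKM through Csf1r alone (10.1 ± 3.87 and 40.2 ± 2.35 FPKM), while Cd68 was at 0.463 ± 0.194 and 0.482 ± 0.210 FPKM. The part of these cells in the phosphodiesterase results was not tested.

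The genes around the phosphodiesterases were taken as 7 lists, with 1 transcript per gene. Of 51 list genes tested 10 were called, 5 up and 5 down, or 19.6%, against 15.0% of all genes tested in this way (7.88% up and 7.17% down). By adjusted p alone 24 of the 51 passed, or 47.1%, with 10 higher and 14 lower, against 40.7% of all genes (19.2% higher and 21.5% lower). With the sample number as a block these were 31 of the 51 (60.8%), against 55.2% of all genes. Without the block the other phosphodiesterase genes had 1 gene up and 2 down of 6 tested by either rule, and all 3 were low. With the block Pde6d was lower as well by adjusted p (41.7 ± 2.38 and 38.7 ± 3.54 FPKM, limma adjusted p = 0.0118), within the 1.5-fold limit. The table held 13 of the other phosphodiesterase genes, and 7 of the 13 were not tested because at least 1 sample was at 0. Among them Pde9a, a cGMP-specific enzyme, was higher in all 6 pairs (0.0425 ± 0.0345 and 0.121 ± 0.0539 FPKM). Without the filter the 7 lists held 12 calls in place of 10. Pde10a, which hydrolyses both nucleotides and is best known from the striatum, was at 0.0289 ± 0.0152 and 0.167 ± 0.0422 FPKM (log2 fold change 1.04, limma adjusted p = 2.648e-05). Pde4c, the remaining PDE4 gene, was at 0.294 ± 0.0614 and 0.170 ± 0.0445 FPKM (-0.55, limma adjusted p = 0.00729). Pde11a, also a dual-substrate enzyme, was at 0.194 ± 0.096 and 0.0568 ± 0.0687 FPKM (-0.95, limma adjusted p = 0.0261), and 3 of its Ad-h-NR4A2 values were below 1e-06. At such levels the added 0.1 draws the fitted values towards 0, and the ratios of the means were 5.77 for Pde10a, 0.577 for Pde4c and 0.293 for Pde11a.

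On the side of synthesis, the main cardiac adenylate cyclases Adcy6 and Adcy5 moved in opposite directions, and by adjusted p they were the only ones of 7 to pass. Adcy6 went from 17.6 ± 4.77 to 56.7 ± 4.76 FPKM (log2 fold change 1.72, limma adjusted p = 4.896e-06). Adcy5 fell in all 6 pairs, from 67.0 ± 3.18 to 49.4 ± 2.71 FPKM, without overlap (-0.44, limma adjusted p = 8.722e-06), within the 1.5-fold limit. Of 6 guanylate cyclase and nitric oxide synthase genes, Gucy1a3, a subunit of soluble guanylate cyclase, was the only one called with the fold limit (lower). Its mean lay below 1 FPKM in both groups (0.909 ± 0.25 and 0.562 ± 0.17 FPKM). By adjusted p alone 2 of the 6 were lower, the second being the natriuretic peptide receptor Npr2 (-0.23, limma adjusted p = 0.0491). Among 13 effectors, 4 were higher and 5 lower by adjusted p, against 40.7% of all genes in either direction, and 2 of the higher ones passed the fold limit. With the block 5 were higher and 6 lower by adjusted p (84.6%, against 55.2% of all genes). This added Popdc2 (higher, limma adjusted p = 0.000593) and Hcn4 (lower, 0.00574). Prkar2b, a regulatory subunit of protein kinase A, went from 0.939 ± 0.25 to 3.08 ± 0.767 FPKM (1.61, limma adjusted p = 8.921e-05). Bves, a cAMP-binding Popeye protein, went from 24.4 ± 2.57 to 39.7 ± 2.68 FPKM (0.70, limma adjusted p = 9.982e-06). Within the limit, the protein kinase A subunit genes divided. Prkar1a rose from 371.1 ± 5.81 to 472.5 ± 32.0 FPKM (limma adjusted p = 5.351e-05), while the catalytic subunit Prkaca fell from 162.9 ± 9.58 to 133.1 ± 6.44 FPKM (limma adjusted p = 0.000264). Prkar2a (limma adjusted p = 0.00206) and Prkar1b (0.00633) fell as well. In these 4 the groups did not overlap, as in 20.6% of all transcripts tested. The other catalytic subunit Prkacb was lower in all 6 pairs, with overlapping groups (36.0 ± 2.57 and 31.5 ± 2.51 FPKM, limma adjusted p = 0.0253).

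Of 8 partner proteins 2 were higher and 2 lower by adjusted p, and 1 passed the fold limit, Pde4dip (myomegalin), an anchoring protein named for its binding to PDE4D. It fell in all 6 pairs, from 421.5 ± 57.1 to 216.0 ± 20.3 FPKM (log2 fold change -0.96, limma adjusted p = 5.734e-06), while Pde4d rose. Pik3r6, a regulatory subunit of phosphoinositide 3-kinase γ, was higher in all 6 pairs (group medians 1.39 and 2.93 FPKM), with a limma adjusted p of 0.248 and, with the sample number as a block, of 0.00151, at which it was called higher. Of 5 genes for cyclic nucleotide efflux and protein kinase A inhibitors, 1 rose and 1 fell by at least 1.5-fold, and by adjusted p alone 2 were higher and 1 lower. With the block 2 were higher and 2 lower by adjusted p (80.0%, against 55.2% of all genes), with Abcc5 added (lower, limma adjusted p = 0.0177). Abcc4, an export pump for cAMP and cGMP, went from 16.6 ± 3.28 to 38.1 ± 4.20 FPKM (1.21, limma adjusted p = 9.81e-06), and the kinase inhibitor Pkig from 143.6 ± 15.8 to 85.7 ± 7.89 FPKM (-0.74, limma adjusted p = 1.301e-05). Of the 6 cAMP response element binding factors and coactivators 0 were called in limma with the fold limit, and 3 had an unadjusted p below 0.05. By adjusted p alone 1 was lower, Crtc2 (13.5 ± 0.685 and 11.5 ± 1.55 FPKM, limma adjusted p = 0.0382), a coactivator. With the block 3 of the 6 (50.0%) were lower by adjusted p, Crtc1 (0.000589), Crtc2 (0.00523) and Crebbp (0.00672). Of all genes tested 55.2% passed with the block, so that this share was not above the background.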

How the data were processed

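Per its methods, the study sequenced stranded mRNA libraries as paired ends, aligned them to Rn5 with STAR and quantified RefSeq transcripts with Cufflinks. The authors deposited 1 FPKM value per transcript and sample. The deposited length column is in nucleotides.

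Groups and sample numbers came from the labels. log2(FPKM + 0.1) of the 11667 transcripts above 0 in all 12 samples was fitted with limma 3.58.1 (R 4.3.3; eBayes with trend, two-sided, Benjamini-Hochberg), unpaired as in the study. On simulated data the fit recovered 198 of 200 transcripts changed by 1.5 on the log2 scale, with 7 false calls, and 183 of 200 changed by 1, with 6. The changed transcripts were drawn from those with a mean of at least 1 FPKM, and the simulated noise held no pair effect. Recovery of less abundant transcripts was not tested. The filter let a member pass with values far below 1 fragment: 31 of 192 member values were above 0 and below 1e-06. Depth was recovered from FPKM steps, and 99.4 to 99.9% of values up to 6 fragments were whole within 0.05. Samples of 1 number were treated as pairs, because the deviations of each pair correlated at 0.274 to 0.508. The study describes 6 experiments with different rats. The meaning of the number is not in the labels. Full values are given for members that were called or had a mean of at least 1 FPKM. List genes are named where called with a mean of at least 1 FPKM, at most 4 a list, besides Pde10a, Pde4c and Pde11a. Pde6d, Pde9a, Adcy5, Gucy1a3, Npr2, Popdc2, Hcn4, Akap6, Akap9, Gnb2l1, Pik3r6, Abcc5, Crtc1, Crtc2, Crebbp, the kinase A subunits within the fold limit and the markers were named after their values were seen. The members and lists were chosen with earlier results of these data known. Alternatives were another pseudocount, filter, scaling, transcript choice, fold limit, a block and leaving out each sample.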

Additional observations from a re-analysis of the deposited data

Results flagged for a closer look

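In 5 of 40 sets of 6 sample values of the phosphodiesterase transcripts and their shares, 1 sample stood apart from the others of its group by Dixon's criterion, which chance alone meets in about 1 of 20 sets. Shares of 1 gene are not independent of each other. Pde4b was at 13.3 FPKM in Ad-h-NR4A2 sample 24, against a group median of 10.2. The same sample had 70.4% of Pde4d on NM_017032 (median 87.3%) and 29.6% on NM_001113334 (median 12.5%). NM_001113332 of Pde4d was at 0.353 FPKM, or 1.5% of the gene, in Ad-h-NR4A2 sample 29, while the other 5 samples of the group had practically none. Without Ad-h-NR4A2 sample 24, NM_001113334 lost its call (limma adjusted p = 0.0531), while Pde4b remained without a call and NM_017032 kept its own.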

How the results depend on the processing

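No phosphodiesterase transcript reversed its direction among those called, under any alternative run. Pde2a (NM_031079 and NM_001270604), NM_017032 of Pde4d and Pde5a kept their calls under every alternative that tested them, as did Pde3b. Requiring a mean of at least 1 FPKM took Pde3b and Pde5a out of the test, so that 0 transcripts were called lower, and left 6 calls in the pathway lists against 10. A 2-fold limit left 5 calls in these lists and ended the call of Pde3a. The replicate block, which compares same-numbered samples, gave 8 calls among the 16 against 16.2% of all transcripts, of which 2 lower, by adding Pde1c, and changed no other call of these. The pathway lists then held 11 calls, with Pik3r6 added. In the unpaired, exact permutation form of the single-value test 8 of the 16 passed after Benjamini-Hochberg adjustment over the 16. In the paired, exact sign-flip form 7 of the 16 reached the smallest p that 6 pairs allow, 0.03125, and 0 passed after the same adjustment. With 7 of 16 at that smallest p none could pass, so that this count decides nothing. Leaving out 1 sample at a time gave 6 to 8 calls (13.5 to 15.6% of all transcripts), 5 to 6 higher, 1 to 2 lower, 7 to 9 by adjusted p alone (34.9 to 40.1% of all), 8 to 12 in the pathway lists, and a ratio of summed levels of 1.67 to 1.77. Differences in share then ran from -2.02 to 3.80 percentage points for NM_031079 and from -9.00 to -2.64 for NM_017032. Setting values below 1e-06 to 0 was added after the data were seen and changed no call of a phosphodiesterase transcript among the 16, and took Pde11a out of the list calls. Fragment number limits Pde1a, Pde1c and Pde5a.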
